A study of Rattus norvegicus with 2 samples.

Results

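The H3K4me3 peaks of chromosomes 2 and 15 of the rat genome (build rn4) were examined in C6 glioma cells, an established rat line used as a model of glial tumours. All peaks that the authors' list places on these chromosomes were taken, 2798 of 30172 in all. Chromosome 2 held 1925 of them and chromosome 15 held 873. The series has 1 library of chromatin precipitated with an antibody against H3K4me3 and 1 input library of C6 chromatin without antibody, which entered only through the authors' peak calling. The labels name no treatment. Cells were cross-linked with formaldehyde, and both libraries were sequenced on a SOLiD instrument, although the protocol text also speaks of an array method and of an Illumina kit. With 1 library and no replicate, every value describes this library alone, and no test between chromosomes was made.

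H3K4me3, the form of histone H3 that carries 3 methyl groups on lysine 4, is found mainly around the start sites of genes that are transcribed or kept poised, and most strongly at promoters rich in CpG. Mammalian chromosomes alternate between gene-rich stretches, where marked promoters lie close together, and gene deserts, long stretches with few or no promoters. The spacing of H3K4me3 peaks along a chromosome is therefore commonly read beside its gene content, which was not analysed here. Each peak has a start, an end and a score from the peak caller MACS, read here as the negative log10 of a p-value, multiplied by 10. It rises as more reads fall into the peak and is not proportional to the amount of the mark. The number of reads behind each peak is unknown.

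Chromosomes 2 and 15 were chosen by their number of peaks per Mb, the lowest of all autosomes, so their density and gaps are given as a description. Between its first and last peak, chromosome 2 held 7.47 peaks per Mb (95% Poisson interval 7.14 to 7.81). The density of chromosome 15 was 7.96 per Mb (7.44 to 8.51). The sparsest of the 18 other autosomes, chromosome 14, had 9.10 per Mb, and these 18 together had 12.4. Peaks covered 1.09% of the span of chromosome 2 and 1.11% of that of chromosome 15, against 1.26% to 3.76% on the other autosomes. Intervals cover counting error only, and neighbouring peaks are not independent.

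Long peak-free stretches, defined as more than 1 Mb between neighbouring peaks, took up a large part of both chromosomes. Chromosome 2 had 53 of them, adding up to 107.1 Mb or 41.6% of its span of 257.8 Mb. Chromosome 15 had 26, adding up to 50.1 Mb or 45.7% of its span of 109.6 Mb. The share of chromosome 15 was the highest of the 20 autosomes and that of chromosome 2 the fourth highest. The other autosomes ran from 18.5% on chromosome 12 to 43.0% on chromosome 14. Per 100 Mb of span there were 20.6 long stretches on chromosome 2 (Poisson interval 15.4 to 26.9) and 23.7 on chromosome 15 (15.5 to 34.7). The pooled other autosomes had 16.5 per 100 Mb (14.8 to 18.3), so both intervals overlapped theirs. The median length of a long stretch was 1.61 Mb on chromosome 2, 1.87 Mb on chromosome 15 and 1.53 Mb on the others.

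**Figure D1:**
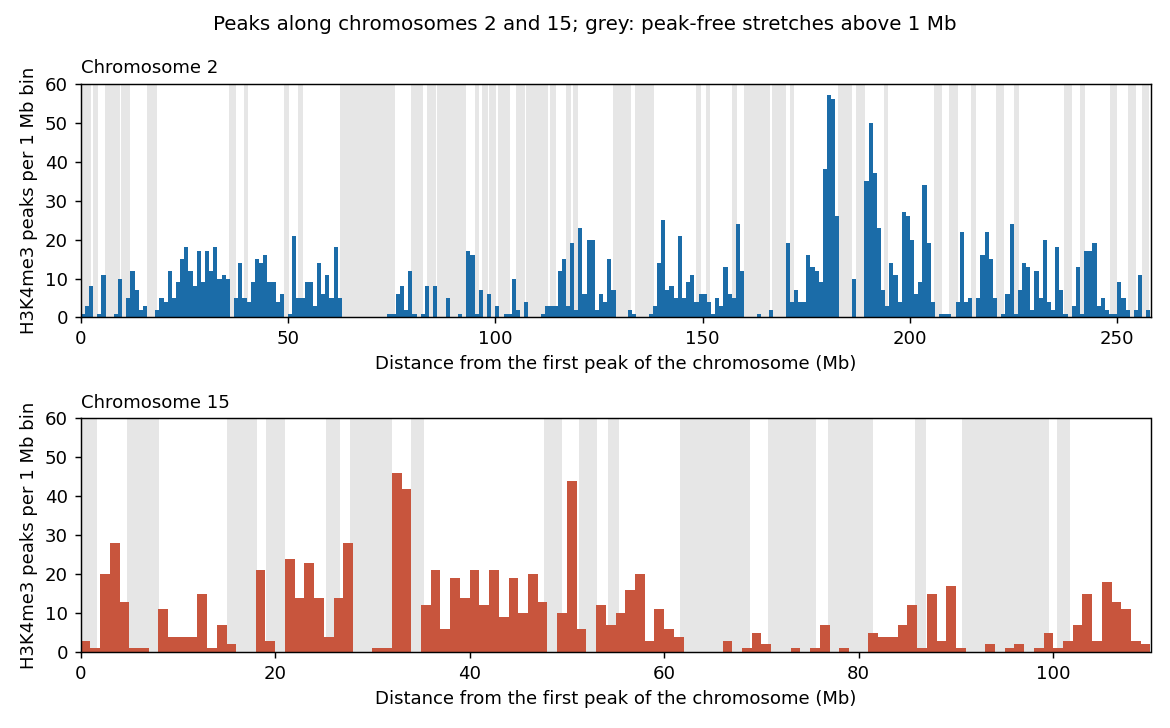
Number of H3K4me3 peaks (vertical axis) in each 1 Mb bin counted from the first peak of the chromosome (horizontal axis, Mb), for chromosome 2 (top) and chromosome 15 (bottom). Grey bands are the 53 and 26 peak-free stretches above 1 Mb, and the tallest bins hold 57 and 46 peaks.

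The longest empty stretch of chromosome 2 stood apart from the rest of that chromosome. It ran for 11.6 Mb, from 62703912 to 74303311, and made up 4.50% of the span. The next in length were 4.39 Mb from 107554300 to 111947528, 4.15 Mb from 128734714 to 132886896, 3.57 Mb from 133849917 to 137422754, and 3.49 Mb from 160232583 to 163724032. On its left side the longest stretch ended at a peak of 1154 bp with a score of 411.65, the last of an island of 85 peaks. On its right side stood a lone peak of 1194 bp with a score of 107.13, followed by another 1.69 Mb without a peak.

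No single stretch dominated chromosome 15, whose 5 longest were of more similar length. These were 4.74 Mb from 61651229 to 66388569, 3.06 Mb from 78514335 to 81571915, 3.05 Mb from 15133198 to 18179121, 2.74 Mb from 70767821 to 73502938, and 2.56 Mb from 90645198 to 93206390. Together they measured 16.1 Mb, or 14.7% of the span. The 5 longest of chromosome 2 measured 27.2 Mb, or 10.6% of a much longer span. A wide peak of 4692 bp with a score of 2147.79 bounded the longest stretch on its right side, while the peak on its left measured 774 bp and scored 88.75. The third stretch followed a peak of 1988 bp with a score of 1559.28, and the peak on its right scored 157.75. The fourth followed a peak of 4947 bp with a score of 1148.44, and the peak on its right scored 88.53. Each of these stretches thus lay between a peak scoring above 1000 and a much weaker peak. The second lay between scores of 90.97 and 85.05, and the fifth between 62.62 and 179.44. Of the 45 peaks of chromosome 15 beside a long stretch, 5 scored above 1000 (11.1%, interval 3.71 to 24.1%). Of its other peaks it was 14.5% (12.2 to 17.1%).

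The limit of 1 Mb falls in a continuous range of gap lengths. The gaps nearest to it were 997132 and 1001303 bp on chromosome 2, and 997415 and 1000050 bp on chromosome 15. Over a range of limits, the 2 chromosomes led the autosomes most clearly at 0.2 Mb. Gaps above 0.2 Mb took up 77.4% of the span of chromosome 2 and 74.99% of that of chromosome 15, the highest and the second highest shares, with the other autosomes between 41.2% and 73.3%. For gaps above 0.1 Mb the shares were 86.5% and 85.4%, again the highest ones, against at most 84.9% elsewhere. For gaps above 0.5 Mb the shares were 58.2% and 59.2%, the third and the second highest, after 62.4% on chromosome 16. For gaps above 2 Mb they were 23.4% and 23.1%, the fifth and the sixth highest, and chromosome 13 reached 32.3%. No gap of chromosome 15 was above 5 Mb, and chromosome 2 had 1.

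**Figure D2:**
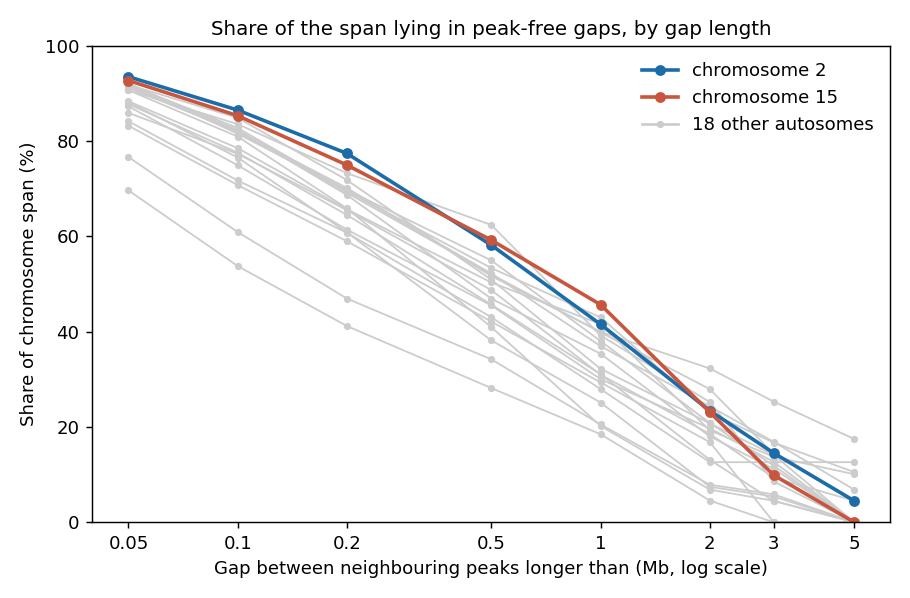
Share of the chromosome span (vertical axis, %) that lies in gaps between neighbouring peaks longer than the length on the horizontal axis (Mb, log scale), with 1 line per autosome. Chromosomes 2 and 15 are the top lines at 0.2 Mb (77.4% and 74.99%) and lie among the others at 2 Mb (23.4% and 23.1%).

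With the long stretches taken out of the span, the intervals of both chromosomes overlapped those of some other autosomes but lay below that of the pooled others. Outside the stretches above 1 Mb chromosome 2 held 12.8 peaks per Mb, (Poisson interval 12.2 to 13.4), still the lowest value of the 20 autosomes. Its interval overlapped those of the next autosomes in order, chromosome 18 with 13.5 per Mb (12.6 to 14.5) and chromosome 17 with 13.6 per Mb (12.8 to 14.5). Chromosome 15 held 14.7 per Mb (13.7 to 15.7), the fourth lowest value, and its interval also covered the values of chromosome 11 (14.7) and chromosome 4 (14.7). The pooled other autosomes had 18.5 per Mb (18.3 to 18.7). Their density over the whole span was 1.66 times that of chromosome 2. This ratio is the product of 1.45 for the density outside long stretches and 1.15 for the share of the span outside them. For chromosome 15 the ratio was 1.55, the product of 1.26 and 1.23. By this division the factor for the islands of peaks was the larger on chromosome 2, and the factors of chromosome 15 were close to each other. These factors depend on the limit of 1 Mb and were not computed for other limits, so their order may differ there. The rank of chromosome 15 depended on the limit, since it was the eighth lowest with stretches above 0.5 Mb taken out (19.5 per Mb) and the second lowest with stretches above 2 Mb taken out (10.4 per Mb).

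**Figure D3:**
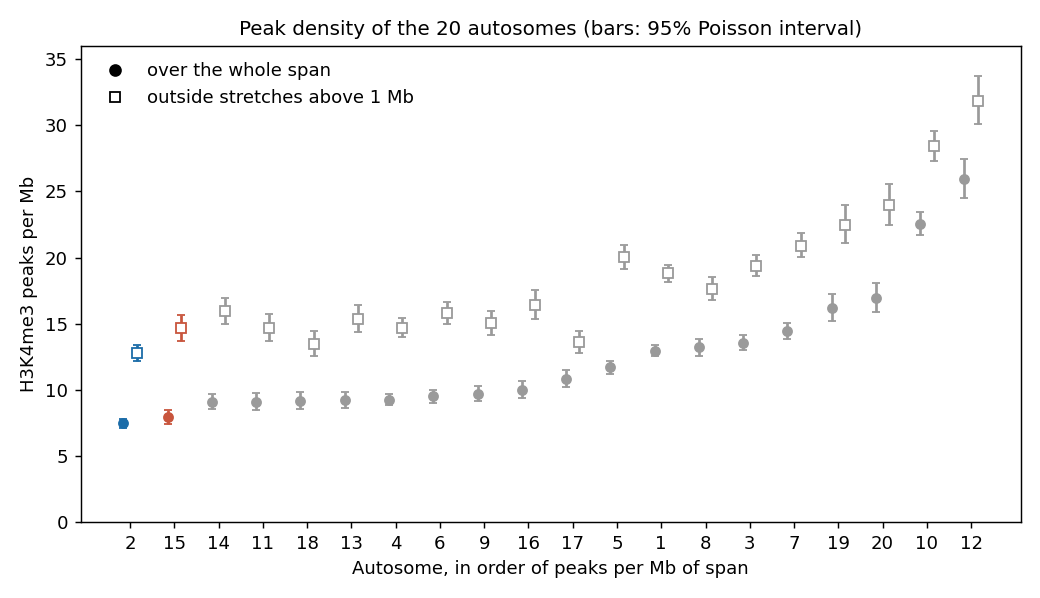
H3K4me3 peaks per Mb (vertical axis) for the 20 autosomes in order of density (horizontal axis), over the whole span (filled circles) and outside peak-free stretches above 1 Mb (open squares), with 95% Poisson intervals. Chromosome 2 (blue) is lowest by both measures, at 7.47 and 12.8, and chromosome 15 (red) moves from 7.96 to 14.7.

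The long stretches divided chromosome 2 into 54 islands of peaks and chromosome 15 into 27. Many islands held few peaks. The median island had 12.5 peaks on chromosome 2 and 8 on chromosome 15, against 22 over all islands of the other autosomes. Taken singly, the other autosomes had medians from 9 on chromosome 14 to 120 on chromosome 10. Chromosome 15 was thus the lowest, and chromosome 2 the third lowest after chromosome 14. The peaks themselves lay mostly in the large islands. The 11 islands above 50 peaks on chromosome 2 held 1385 peaks, or 71.9% of the total, in 39.2% of the span. On chromosome 15 there were 7 such islands with 632 peaks, or 72.4% of the total, in 34.2% of the span. The share was larger on the other autosomes, where islands above 50 peaks held 23251 of 26745 peaks.

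The fullest island of chromosome 2, from 172378267 to 182888071, held 242 peaks in 10.51 Mb. Its density was 23.0 peaks per Mb and its median score 287.0. Of its peaks, 51 (21.1%) scored above 1000, against 15.8% over all of chromosome 2 and 15.3% on the other autosomes. An island of 194 peaks spread thinly over 17.3 Mb from 18753408 to 36086403, at 11.2 per Mb. One of 177 peaks lay from 194989851 to 205914912, at 16.2 per Mb with a median score of 164.2. The island from 189285787 to 193938484 held 152 peaks in 4.65 Mb. It was the densest island of chromosome 2 with at least 20 peaks, at 32.7 per Mb, its median score was 369.9 and 38 of its peaks scored above 1000. The fifth, from 138623664 to 148652485, held 112 peaks at 11.2 per Mb.

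On chromosome 15 the fullest island ran from 35340960 to 47723672 and held 197 peaks in 12.4 Mb, or 22.6% of the peaks of the chromosome. Its density was 15.9 per Mb and its median score 154.2. The second, from 32043983 to 34032105, packed 89 peaks into 1.99 Mb. Its 44.8 peaks per Mb ranked eighth among the 233 autosomal islands with at least 20 peaks, although the chromosome as a whole was the second sparsest. Its median score was 334.0. Next came 79 peaks from 21097463 to 25250180 (19.0 per Mb), 75 peaks from 101762189 to 109715260 (9.43 per Mb) and 70 peaks from 55462346 to 61651228 (11.3 per Mb). A smaller island from 26765540 to 27779512, named for its density after the values were seen, held 42 peaks in 1.01 Mb, or 41.4 per Mb. The 12 islands of chromosome 15 with at least 20 peaks had a median density of 17.5 per Mb, the 22 of chromosome 2 had 12.1 and the 199 of the other autosomes had 16.5.

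Divided into 4 segments of equal length, each chromosome had its sparsest segment beside its fullest one. On chromosome 2 the second segment, from 64687649 to 129130916, held 286 peaks or 4.44 per Mb (Poisson interval 3.94 to 4.98), and long stretches took up 65.4% of it. The third segment held 625 peaks or 9.70 per Mb (8.95 to 10.49), with 43.2% of it in long stretches. The first and last held 7.45 and 8.29 per Mb. Outside the long stretches the second segment had 12.8 peaks per Mb, more than the first (10.6) and the last (11.5). On chromosome 15 the second segment, from 27483903 to 54894355, held 381 peaks or 13.9 per Mb (12.5 to 15.4). The third segment, from 54894356 to 82304808, held 96 peaks or 3.50 per Mb (2.84 to 4.28), with 63.1% of it in long stretches. The first segment had 8.94 and the last 5.51 per Mb. The fullest segment was 2.19 times as dense as the sparsest on chromosome 2 and 3.97 times on chromosome 15, within the 1.44 to 6.75 times of the other autosomes.

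On chromosome 15 weak scores were frequent in the sparsest segment, but not in the last, the second sparsest. In the sparse segment, the third, the median score was 99.1 and 51.04% of peaks scored under 100, against 29.8% to 31.8% in the other 3 segments. The share of scores above 1000 was 16.7% there, higher than in the first segment (13.1%) and the last (10.6%), so this segment held both weak and strong peaks. Of its 96 peaks, 70 lay in 1 island, from 55462346 to 61651228, with 11.3 peaks per Mb and a median score of 114.3. Its scores thus describe mostly that island. On chromosome 2 the sparse segment, the second, had a median score of 210.6, within the 193.1 to 241.2 of the other 3 segments. A long sparse run of chromosome 15, picked by eye after the values were seen, was the 34.1 Mb from 66388570 to 100502753. It held 102 peaks in 12 islands, or 2.99 per Mb, and 11 long stretches took up 64.9% of it. Of its peaks, 17 scored above 1000, or 16.7% (exact Clopper-Pearson interval 10.02 to 25.3%). The share over all of chromosome 15, 14.3%, lay inside this interval. Scores under 100 made up 41 of the 102 peaks, or 40.2%, against 32.9% over all of chromosome 15. A well-filled run of chromosome 2, picked in the same way, was the 35.6 Mb from 170288681 to 205914912, with 604 peaks or 31.4% of the chromosome in 13.8% of its span. Scores above 1000 made up 20.03% of these peaks (interval 16.9 to 23.5%), against 15.8% (14.2 to 17.5%) over all of chromosome 2, which includes them. The intervals overlapped and do not allow for the picking.

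Islands of a single peak were weak on chromosome 15 and of middling score on chromosome 2. Chromosome 2 had 9 among its 54 islands, or 16.7% (Clopper-Pearson interval 7.92 to 29.3%), and chromosome 15 had 7 among 27, or 25.9% (11.1 to 46.3%). The other autosomes had 42 among 374, or 11.2% (8.21 to 14.9%), with the highest shares on chromosomes 13 (3 of 15) and 20 (2 of 10). On chromosome 2 their scores ran from 55.11 to 273.97 with a median of 168.46, and their widths from 350 to 1421 bp. The lowest was the first peak of the chromosome, at 244382 to 244731, which has a neighbour on 1 side only. The highest lay at 81142778 to 81143601, and that at 163724033 to 163724807 (score 139.18) had 3.49 Mb without a peak on its left and 2.72 Mb on its right. On chromosome 15 the lone peaks scored from 53.93 to 939.55 with a median of 71.93. All but the highest, at 95110706 to 95113230 with a width of 2525 bp, scored at most 90.97. The lone peak at 73502939 to 73503757 (score 88.53) had 2.74 and 2.15 Mb without a peak on its sides.

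Of the lone peaks, 1 of 9 on chromosome 2 scored under 100, or 11.1% (Clopper-Pearson interval 0.281 to 48.2%). On chromosome 15 it was 6 of 7, or 85.7% (42.1 to 99.6%), and on the other autosomes 28 of 42, or 66.7% (50.5 to 80.4%). The intervals of chromosomes 2 and 15 overlapped, as did those of chromosome 15 and the other autosomes. That of chromosome 2, from only 9 peaks, ended just below that of the other autosomes. The same order was seen in all peaks that bound a long stretch, which include the lone ones. Their median score was 173.4 for the 98 such peaks of chromosome 2, 91.0 for the 45 of chromosome 15 and 156.7 for the 673 of the other autosomes. Scores under 100 made up 27.6% (19.0 to 37.5%), 51.1% (35.8 to 66.3%) and 39.4% (35.7 to 43.2%) of them, with intervals that overlapped. For peaks that bound no long stretch the shares were 31.2%, 31.9% and 35.4%.

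**Figure D4:**
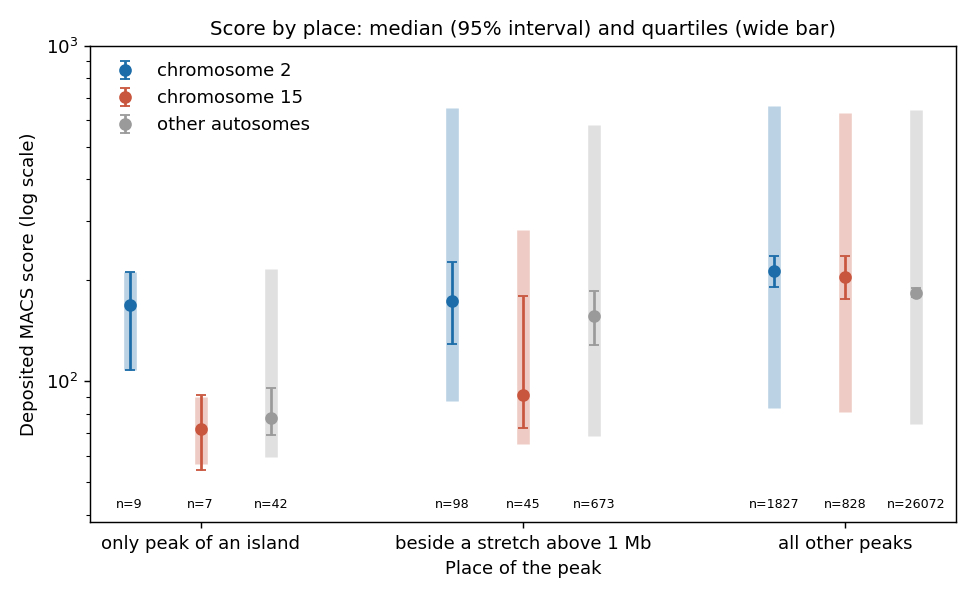
Deposited MACS score (vertical axis, log scale) of peaks that are alone in an island, of all peaks beside a peak-free stretch above 1 Mb, and of all other peaks, for chromosome 2, chromosome 15 and the 18 other autosomes. Points are medians with nominal 95% intervals, and wide bars span the quartiles. The medians of lone peaks are 168.46 on chromosome 2 and 71.93 on chromosome 15. From so few lone peaks (9 and 7), the drawn intervals cover less than 95% and are too narrow. The scores of these lone peaks overlapped, from 55.11 to 273.97 and from 53.93 to 939.55.

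Median widths and scores of both sparse chromosomes lay inside the range of the other autosomes and above their pooled medians. The median width was 1097 bp on chromosome 2 (95% order-statistic interval 1063 to 1135 bp, quartiles 736 and 1845 bp). It was 1064 bp on chromosome 15 (1030 to 1124 bp, quartiles 753 and 1721 bp). The other autosomes had medians from 974 to 1133 bp, and 1045 bp when pooled (1035 to 1057 bp), below the interval of chromosome 2 and inside that of chromosome 15. The median score was 211.3 on chromosome 2 (interval 190.6 to 233.1), the second highest of the 20 after chromosome 14 with 227.6. On chromosome 15 it was 199.2 (168.1 to 227.2), the fifth highest, and the lowest was 141.3 on chromosome 12. The pooled others had 182.9 (177.8 to 188.0), again below the interval of chromosome 2 and inside that of chromosome 15.

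Weak and narrow peaks made up smaller shares of both chromosomes than of the pooled other autosomes, and on chromosome 15 the intervals overlapped theirs. Scores under 100 made up 31.0% of the peaks of chromosome 2 (interval 29.0 to 33.1%) and 32.9% of those of chromosome 15 (29.8 to 36.1%), the second and the third lowest shares after 30.9% on chromosome 14. The pooled share of the others was 35.5% (34.9 to 36.1%), above the interval of chromosome 2 and inside that of chromosome 15. Peaks narrower than 500 bp made up 6.13% (5.10 to 7.30%) and 6.76% (5.18 to 8.63%), against 8.04% (7.71 to 8.37%) on the others and 5.48% on chromosome 18, the lowest. Scores above 1000 made up 15.8% (14.2 to 17.5%) and 14.3% (12.1 to 16.8%), and 15.3% (14.9 to 15.7%) elsewhere. Across the 20 autosomes the share of scores under 100 was higher where peaks were denser (Spearman's rho 0.68, Pearson's r 0.59, and 0.73 and 0.61 without chromosomes 10 and 12). With density, rho was 0.44 for the share of scores above 1000 (0.24 without chromosomes 10 and 12), -0.47 for the median score, -0.38 for the median width and 0.17 for the share of joined regions with 2 or more peaks. The autosomes share 1 library, and these correlations only describe the list. Whether depth or mapping differs between chromosomes was not tested.

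**Figure D5:**
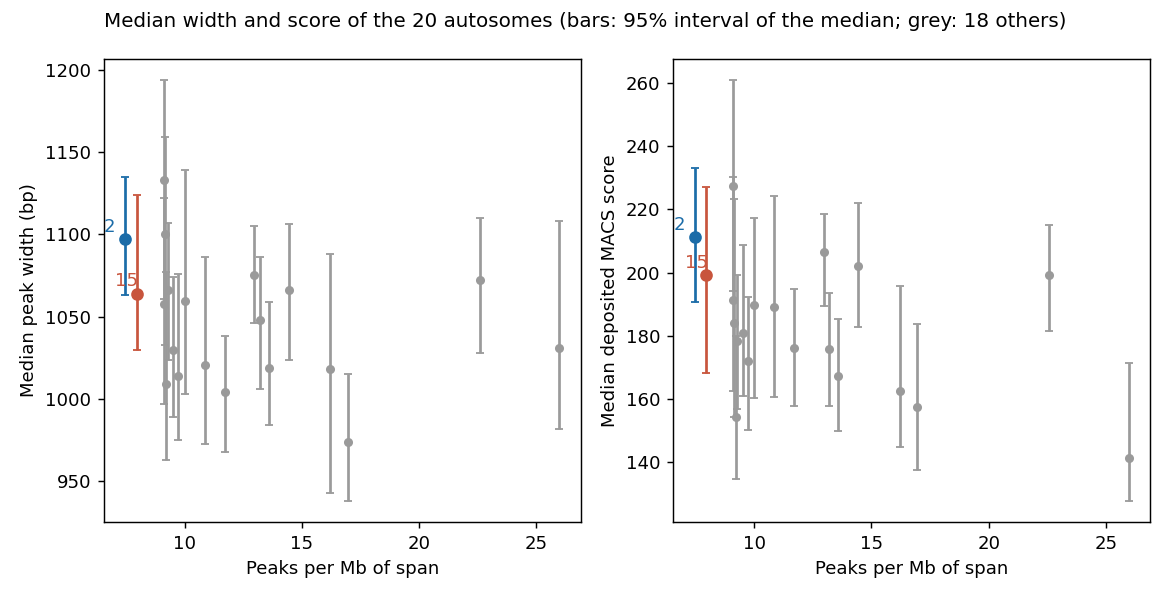
Median peak width (left, bp) and median deposited score (right) against peaks per Mb of span for the 20 autosomes, with 95% intervals of the median. Chromosomes 2 and 15 lie at the left edge by density and inside the range of the other medians, at 1097 and 1064 bp and at scores of 211.3 and 199.2.

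The widest peaks of chromosome 2 were scattered over 4 islands. The widest, 9407 bp at 180606981 to 180616387, and the second, 8164 bp at 181614266 to 181622429, lay in the fullest island and both had the score of 3100. This score was shared by 230 peaks of the list. Whether it was computed or is a fixed substitute for a p-value below the range of the software is not known, so no order is read among the highest scores. The others were 8094 bp at 12258109 to 12266202 (score 3005.94), 7584 bp at 45908235 to 45915818 (2962.15) and 7363 bp at 228548273 to 228555635 (3100). The highest listed scores were 3233.06, for a peak of 3725 bp at 218045393 to 218049117, and 3133.02, for one of 5336 bp at 180748583 to 180753918. The score of 3100 was shared by 14 peaks of chromosome 2. The remaining 3 of the 5 named by score were the 3 widest among those 14. In an island of only 10 peaks, from 186274211 to 187232045, 1 of the 14 stood at 186645605 to 186652039, with 578064 bp free of peaks to its right.

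Chromosome 15 had 2 peaks at the score of 3100, a share of 0.229% (0.0278 to 0.825%) against 0.727% on chromosome 2 (0.398 to 1.22%) and 0.800% on the others (0.697 to 0.914%). It was the lowest share of the 20 autosomes, with an interval that overlapped the others. These 2 peaks were 7647 bp wide at 90006244 to 90013890 and 4235 bp wide at 15126770 to 15131004. The second of them stood just before the 3.05 Mb stretch that begins at 15133198, with 1 more peak between. The widest peak, 7860 bp at 105354655 to 105362514, scored 2833.37. The remaining 3 of the 5 widest were 7332 bp at 42447077 to 42454408 (score 3081.05), 6504 bp at 50955869 to 50962372 (3087.13) and 6497 bp at 61543293 to 61549789 (2565.10). By score, the list of 5 was completed by 3087.13, 3086.27 for a peak of 5500 bp at 46408757 to 46414256, and 3081.05.

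Peaks 1000 bp or less apart were joined into regions, because MACS can call several peaks in a single enriched stretch. The 1925 peaks of chromosome 2 formed 1407 regions, of which 1027 were single peaks, 278 held 2 peaks, 77 held 3 and 25 held 4 or more. The 873 peaks of chromosome 15 formed 641 regions, with 460, 140, 32 and 9 in these classes. Regions of 2 or more peaks made up 27.0% (24.7 to 29.4%) on chromosome 2, 28.2% (24.8 to 31.9%) on chromosome 15 and 28.7% (28.1 to 29.4%) on the other autosomes, and the 3 intervals overlapped. The gaps nearest to the limit of 1000 bp were 996 and 1015 bp on chromosome 2, and 976 and 1008 bp on chromosome 15.

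The median score of single-peak regions was listed highest on chromosome 2, with intervals that overlapped those of several other autosomes. It was 142.2 there (interval 127.1 to 165.4), followed by 136.3 on chromosome 1 (123.0 to 148.4), 133.6 on chromosome 18 (111.4 to 151.4) and 131.9 on chromosome 14 (106.7 to 160.1). It was 125.8 on chromosome 15 (109.2 to 142.8) and 114.1 on the pooled others (110.8 to 117.9). Single peaks under a score of 100 made up 39.6% on chromosome 2 (36.6 to 42.7%), 42.8% on chromosome 15 (38.3 to 47.5%) and 46.2% elsewhere (45.3 to 47.0%). In regions of several peaks, the median score of the best peak was 716.8 on chromosome 2 (643.6 to 791.5), 785.6 on chromosome 15 (655.9 to 884.3) and 754.9 elsewhere (731.9 to 778.3). These intervals overlapped one another.

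The share of broad joined regions had overlapping intervals on both chromosomes and elsewhere. Regions of at least 10 kb were 8 of 1407 on chromosome 2 (0.569%, interval 0.246 to 1.12%) and 3 of 641 on chromosome 15 (0.468%, 0.0966 to 1.36%), against 0.584% on the other autosomes (0.481 to 0.702%). Regions of 2 or more peaks had a median length of 3507.5 bp (3289 to 3698 bp) on chromosome 2 and 3330 bp (3061 to 3561 bp) on chromosome 15. The broadest of chromosome 2, 23717 bp from 12256464 to 12280180, was also the broadest of all autosomes. Its 7 peaks included strong ones near both ends, of 8094 bp (score 3005.94) and of 5792 bp (score 2332.64), and the weakest scored 129.93. It stood in an island of 29 peaks with 7.04 peaks per Mb, against 12.8 per Mb for all of chromosome 2 outside its long stretches. The next were 18203 bp with 6 peaks from 120966876 to 120985078, 15929 bp with 4 peaks from 180603005 to 180618933, and 13165 bp with 6 peaks from 242496495 to 242509659. The fifth, 12952 bp with 4 peaks from 43113875 to 43126826, had a best score of 1211.5. Peaks covered 86.3% to 98.2% of the length of these regions.

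The broadest region of chromosome 15 was 10742 bp long, from 42443667 to 42454408, the lowest maximum of the 20 autosomes, which differ in their number of regions. Of its 4 peaks 1 scored 3081.05 and the others 104.35 to 136.22. The following ones measured 10212 bp from 90006244 to 90016455 (2 peaks), 10158 bp from 50953409 to 50963566 (5 peaks), 8735 bp from 61541055 to 61549789 (2 peaks) and 8180 bp from 76732384 to 76740563 (3 peaks). The last lay in an island of 8 peaks, with a best score of 2367.41. No region of chromosome 15 held more than 5 peaks.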

How the data were processed

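Per the file header, the authors ran MACS on the H3K4me3 library with input as control, and the submitters' processing notes name build rn4. Version and settings of MACS and the aligner were not given in the sources used here. The deposited score runs from 50 to 3233.06, which is the negative log10 of the smallest positive double-precision number, multiplied by 10. No read counts were used, so the depth is unknown. Gaps, islands, joined regions and medians were computed in Python 3.11.15 (pandas 2.3.3, SciPy 1.17.1, NumPy 2.4.6), tested on simulated peaks, and drawn with matplotlib 3.10.9. Spans run from the first to the last peak, and starts are counted from 1. Intervals are 95% exact Poisson, Clopper-Pearson or order-statistic intervals. The order-statistic intervals are nominal and cover less than 95% where peaks are few, as for lone peaks. Named were, per chromosome, the 5 longest stretches, the 5 islands with the most peaks, lone peaks, and the 5 widest peaks, highest scores and widest joined regions. The chromosomes, measures and lists were chosen with earlier results of these data known. Alternatives were other gap limits, the upper part of the scores, a minimum width and joined regions as units. Neither rn4 sequence nor rn4 gene positions were used here.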

Additional observations from a re-analysis of the deposited data

How the results depend on the processing

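Values below are for chromosome 2 first and chromosome 15 second. Of 28 alternatives, 23 moved a value beyond its interval, or by over 1.5 times for a count. Stretches above 0.5 Mb numbered 113 and 47, and those above 2 Mb 18 and 9. With these taken out, the density was 17.9 and 19.5 peaks per Mb, and 9.75 and 10.4 per Mb. Peaks at or above the median score of the list, 185.56, gave 8.70 and 10.1 peaks per Mb outside long stretches, the third and the ninth lowest of the autosomes. They gave a median width of 1750 and 1664 bp and 23.8% and 23.2% of joined regions with 2 or more peaks. The number of long stretches was then 63 and 26, which counts as unmoved. With a minimum width of 500 bp, the median width was 1154 and 1130 bp, and on chromosome 2 a median score of 240.1. The best scores of joined regions had a median of 268.2 and 249.4. Joining at 500 bp or less gave 22.1% and 22.2% of regions with 2 or more peaks, and joining at 2000 bp or less 30.6% and 32.0%. Most of these moves follow from the alternative's construction, since it removes peaks or changes a limit. No paired analysis was possible because the study has a single H3K4me3 library. Without read numbers, a stretch without a listed peak cannot be told from one with enrichment below the authors' threshold. The stretches were also not compared with gaps in the rn4 assembly or with sequence where reads cannot be placed.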
